A study of Arabidopsis thaliana with 28 samples.

Results

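Mitochondrion-encoded genes were followed through 22 probe sets of 15 gene symbols, out of 22810 probe sets on the array. They are the probe sets with exactly 1 gene in the platform annotation whose lower-case symbol begins with nad, cox, cob, ccb, ccm, mtt or orf. The rule uses no measured value. No symbol beginning with cob, ccm or mtt was found on a single-gene probe set. The 22 comprise 15 probe sets of 8 complex I genes (nad1 with 7, nad5 with 2, and nad2, nad4, nad4L, nad6, nad7 and nad9 with 1 each), cox1 and cox2 of complex IV, 4 genes of cytochrome c maturation (ccb203, ccb206, ccb382 and ccb452) and orfX. All 22 matched a gene on the mitochondrial chromosome of the RefSeq table (assembly TAIR10.1) by symbol or synonym, where ccb203, ccb206, ccb382, ccb452 and orfX are listed as ccmFN2, ccmB, ccmFN1, ccmFC and mttB. Together they cover 15 of the 33 protein-coding entries of that chromosome, and in its gene order ccmFC, nad4 and mttB follow each other.

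A probe set was tested when, in at least 1 group, both of its signals exceeded the 40th percentile of their arrays, and 16 members of 12 symbols passed. The 6 that did not were nad1 257327_at and 257329_at, nad2, nad5 257337_at, nad7 and ccb203. On every one of the 28 arrays 8 members exceeded that percentile, namely nad1 257322_at, nad4, nad5 257338_s_at, nad9, cox1, ccb382, ccb452 and orfX. Outside the rule, matR, which encodes an intron maturase, was the only mitochondrion-encoded gene whose RefSeq symbol was found on a single-gene probe set. It did not pass, and synonyms were not searched for genes outside the rule.

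The plant mitochondrial genome keeps genes for the core of the respiratory chain, while most subunits are made in the cytosol from nuclear genes and imported. The nad genes encode membrane and matrix-arm subunits of complex I, which oxidises NADH and pumps protons, and the cox genes encode the catalytic core of complex IV, which reduces oxygen. The ccm genes encode the machinery that carries haem across the inner membrane and attaches it to cytochrome c, and mttB encodes a TatC-like component of a protein translocase. Several nad transcripts are assembled by trans-splicing of separately transcribed pieces. Plant mitochondrial mRNAs are edited and trimmed at their ends, and a poly(A) tail marks them for decay. The sources used here do not say how the RNA was primed for labelling. A nuclear chromosome of this species carries a long copy of mitochondrial DNA, and probe sets with the suffix _s_at (nad5 257338_s_at, nad6, ccb452 and orfX) are designed to match more than a single transcript. Signals from such copies and from the mitochondrial genes cannot be told apart here.

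Plants of Arabidopsis thaliana, accession Col-0, were grown on Murashige and Skoog medium under 16 h days, and their shoots and roots were taken separately. Wounding with pins began on day 16, 3 h into the light period, and each organ was sampled 0.25, 0.5, 1, 3, 6, 12 and 24 h later with 2 arrays per organ and time. No unwounded plants were analysed here, so each time was set against 24 h of the same organ, which falls at the hour of day of the start, and shoots were set against roots at the same time. At 3, 6 and 12 h the hour of day also differed from that at 24 h. Time since wounding and hour of day cannot be told apart here. The labels do not say whether the 2 arrays of a group came from separate cultures, so p-values measure the spread between these arrays, which may be technical. In bulk tissue, fewer cells of a type and less RNA per cell cannot be told apart.

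Organ labels were borne out by all 9 markers. PRK, a Calvin cycle enzyme, averaged 3957 ± 554 in shoots and 31.0 ± 9.42 in roots, and PYK10, a root β-glucosidase, averaged 1132 ± 452 in shoots and 3499 ± 306 in roots (SD, n = 14 each). The other markers differed 28.6-fold or more for the shoot set, and shoot levels of EXPA7, EXPA18 and LBD16 were 0.239 to 0.308 of the root levels. The median SD between arrays of a group was 0.15 on the log2 scale for the tested members in shoots and 0.15 in roots, against 0.12 and 0.10 for all tested probe sets. The 3′ to 5′ signal ratio of the GAPDH control was 2.06 to 2.73 in shoots at 24 h, against 1.52 to 2.61 at the other times, and that of the ubiquitin control was 3.71 to 4.33 against 2.25 to 4.58. Over all root arrays the GAPDH ratio was 0.929 to 1.78 and the ubiquitin ratio 2.14 to 3.47. The part of these ratios in the organ differences was not tested. The array shoots 0.5 h replicate 1 stood apart by a 25S rRNA control signal of 546, where the other shoot arrays read 1279 to 2825. The 3′ to 5′ ratio of the actin control was 30.1 on shoots 6 h replicate 1, against 6.95 to 11.9 on the other shoot arrays, and 11.8 to 20.2 in roots.

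Over the time course, mitochondrion-encoded signals were lowest at 0.5 h and 3 h in both organs. In shoots at 3 h all 22 members, tested or not, lay below their own mean over the shoot time course, and at 0.5 h 18 of 22 did. In roots 19 of 22 lay below their root mean at 0.5 h, 17 at 1 h and 20 at 3 h, whereas only 2 of 22 did at 12 h. The 16 tested members had a median of -0.17 at 0.5 h and -0.24 at 3 h in shoots on the log2 scale relative to the organ mean, and 0.18 at 6 h. In roots the median was -0.27 at 0.5 h, it was -0.18 at 3 h, and it reached 0.32 at 12 h. Across all tested probe sets the same medians stayed between -0.06 and 0.06 in shoots and between -0.02 and 0.02 in roots.

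**Figure D1:**
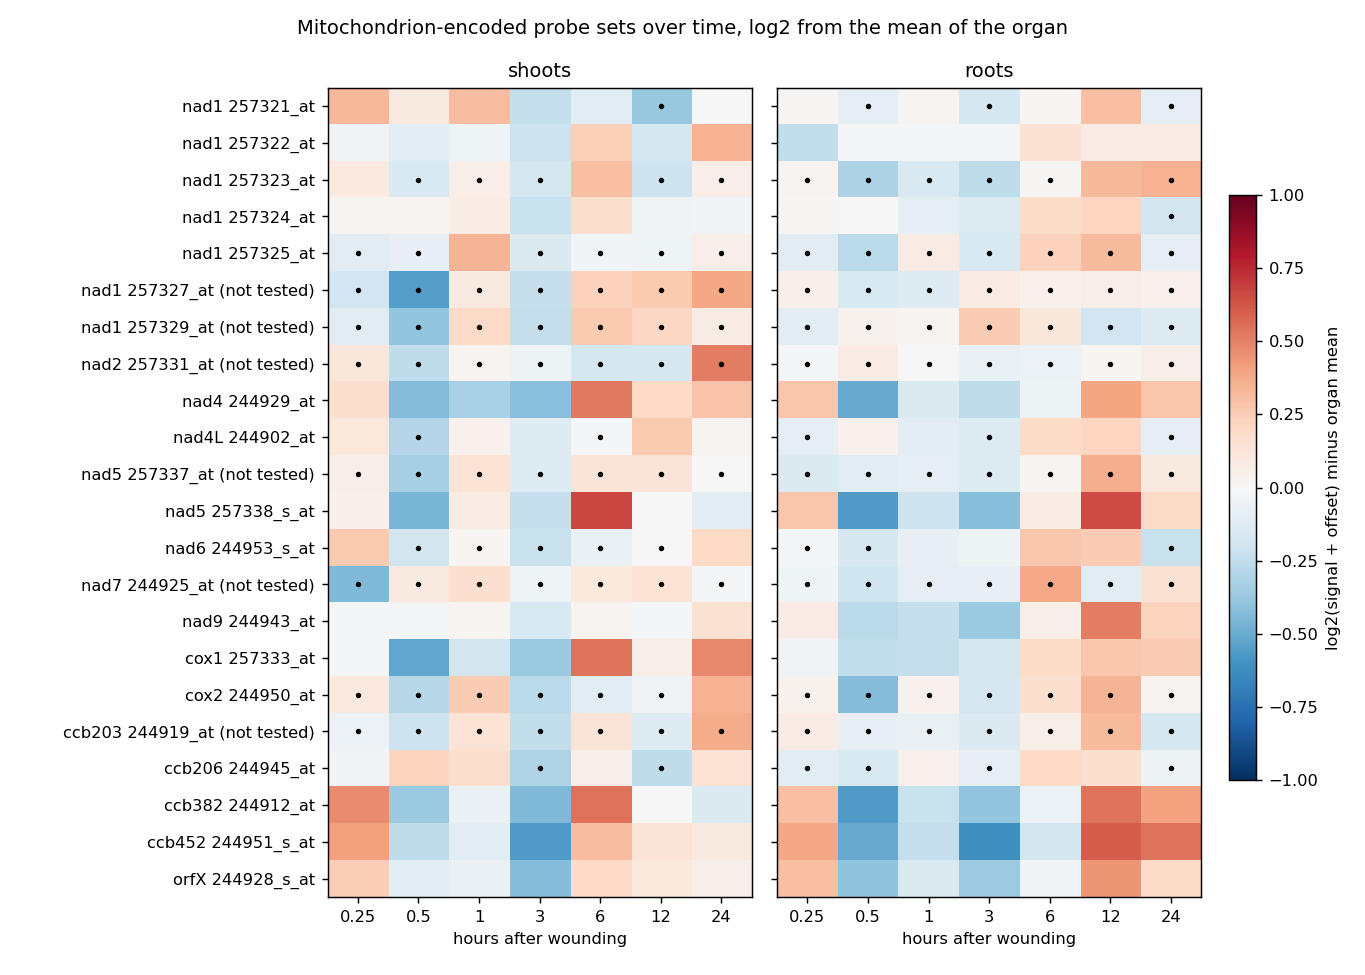
Colour shows the mean of 2 arrays as log2(signal + offset) minus the mean of the same organ, for 22 probe sets (rows) and 7 times (columns), shoots left and roots right; a dot marks a group not above the 40th percentile on both arrays. The 3 h column in shoots is blue in all 22 rows, and the 12 h column in roots is red in 20 of 22.

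Against 24 h, limma called single times in few members. Of the 16 tested in shoots, 1 was higher at 0.25 h (9.93% of all tested probe sets called higher), and 2 were higher at 6 h (13.0%). In shoots 4 were lower at 0.5 h, and 1 without replicate 1 of that time (14.9% of all called lower), 2 at 1 h (18.4%), 6 at 3 h (10.2%) and 1 at 12 h (9.39%). The counts at 0.5 h and 3 h include cox2, which passed the filter only through shoots at 24 h, the reference. Its lower direction was favoured by that filter. The count at 3 h was 2 without either shoot array at 3 h and 3 without either shoot array at 24 h, and that at 0.5 h was 2 without either shoot array at 24 h. The count at 6 h was 0 when replicate 2 of that time was left out and 1 when replicate 2 of 24 h was. In roots 2 members were lower at 0.5 h (0.264% of all called lower), 2 at 3 h (0.209%) and 1 at 6 h (0.547%). None was called in roots at 0.25 h (0.314% of all called in either direction), 1 h (0.0553%) or 12 h (7.38%). At 3 h all 16 tested members had a lower mean log2 value in shoots than at 24 h, with a median difference of -0.36 against -0.01 for all probe sets, and in roots 14 of 16 did, with a median of -0.31 against -0.02. At 0.5 h the medians were -0.27 in shoots and -0.47 in roots, against -0.07 and -0.02 for all probe sets. With quantile scaling the medians of the members were -0.38 in shoots and -0.26 in roots at 3 h, and -0.25 in shoots and -0.44 in roots at 0.5 h. Under it 3 of 16 members changed sign in roots at 3 h, 1 did in roots at 0.5 h and none did in shoots at either time.

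The F-test over all 7 times, which favours no reference time, called 8 of 16 tested members in shoots (61.5% of all tested probe sets called) and 5 of 16 in roots (14.8%). nad5 257338_s_at, ccb382, ccb452 and orfX were called in both organs. nad1 257321_at, nad1 257322_at, nad4 and cox1 were called in shoots, and nad9 in roots. An F-test of the difference between the organs' time courses called only nad5 257338_s_at, ccb382 and ccb452 (3 of 16, against 42.2% of all tested probe sets).

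**Figure D2:**
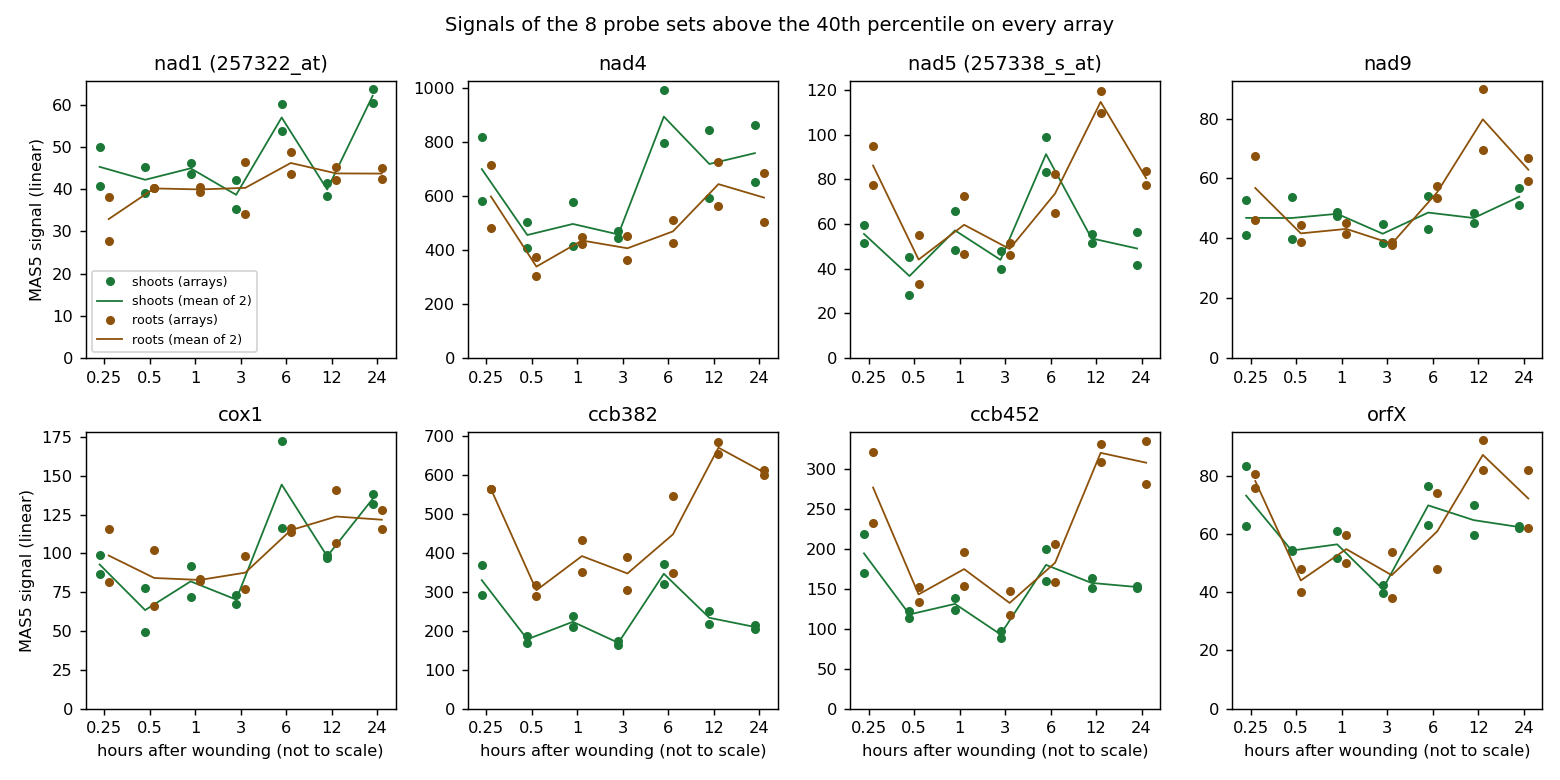
Linear MAS5 signal of each array (points) and the mean of 2 arrays (lines) for the 8 probe sets above the 40th percentile on every array, shoots in green and roots in brown, by hours after wounding on an axis that is not to scale. The mean of ccb382 was lower in shoots than in roots at every time, and its highest shoot array read 373 against 686 in roots.

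Among complex I genes, nad4 encodes a membrane-arm subunit of the proton-pumping part. In shoots its 2 arrays read 582 and 819 at 0.25 h, 407 and 505 at 0.5 h, 580 and 415 at 1 h, 445 and 472 at 3 h, 797 and 992 at 6 h, 593 and 846 at 12 h, and 654 and 865 at 24 h. In roots they read 716 and 483 at 0.25 h, 374 and 304 at 0.5 h, 450 and 422 at 1 h, 363 and 451 at 3 h, 514 and 426 at 6 h, 563 and 726 at 12 h, and 684 and 505 at 24 h. Both shoot arrays at 0.5 h and at 3 h lay below both 24 h arrays. The log2 difference from 24 h in shoots was -0.72 ± 0.23 (SE) at 0.5 h (adjusted p = 0.0286) and -0.70 ± 0.23 at 3 h (adjusted p = 0.0373), and the F-test over time gave an adjusted p of 0.00470. Neither single-time call held throughout. The 0.5 h call was lost without shoots 0.5 h replicate 1 (adjusted p = 0.206) or shoots 24 h replicate 2 (0.196), and the 3 h call without shoots 3 h replicate 1 (0.154), shoots 3 h replicate 2 (0.111) or shoots 24 h replicate 2 (0.232). Quantile scaling also ended both nad4 calls (0.0504 at 0.5 h and 0.0843 at 3 h), as did 0.25 h as the reference time (0.208 and 0.0704). The F-test over time in roots gave nad4 an adjusted p of 0.0570.

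nad5 encodes another large membrane-arm subunit, and its probe set 257338_s_at was called over time in both organs. Its shoot arrays read 59.6 and 51.7 at 0.25 h, 28.5 and 45.1 at 0.5 h, 65.8 and 48.6 at 1 h, 39.9 and 48.2 at 3 h, 83.5 and 99.1 at 6 h, 51.6 and 55.6 at 12 h, and 56.5 and 41.7 at 24 h. Its root arrays read 94.9 and 77.6 at 0.25 h, 55.2 and 33.1 at 0.5 h, 72.8 and 46.6 at 1 h, 46.2 and 51.6 at 3 h, 64.9 and 82.6 at 6 h, 109.9 and 119.5 at 12 h, and 77.5 and 83.6 at 24 h. The highest pair was thus at 6 h in shoots and at 12 h in roots, and each pair lay above all other arrays of that organ. The F-test gave an adjusted p of 0.00390 in shoots and 0.00286 in roots. In shoots at 6 h the signal was 0.78 ± 0.21 log2 units above 24 h (adjusted p = 0.00950). That call was lost without shoots 6 h replicate 2 (0.0897) or shoots 24 h replicate 2 (0.103), and held without shoots 6 h replicate 1, the array with the high actin ratio (0.89, adjusted p = 0.0237). The second nad5 probe set, 257337_at, did not pass the filter and read 7.77 to 26.4 in shoots and 13.3 to 27.8 in roots, so it neither repeats nor contradicts the pattern of the first.

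nad9 encodes a subunit of the matrix arm. Its root arrays read 67.3 and 46.3 at 0.25 h, 44.6 and 38.7 at 0.5 h, 45.0 and 41.3 at 1 h, 38.6 and 37.8 at 3 h, 53.4 and 57.5 at 6 h, 69.6 and 89.9 at 12 h, and 59.1 and 66.7 at 24 h. The lowest pair was at 3 h and the highest at 12 h, and the F-test over time in roots gave an adjusted p of 0.00507. In shoots the 14 arrays ranged from 38.4 to 56.7 and the F-test gave an adjusted p of 0.744. The test of a difference between the organs' time courses gave nad9 an adjusted p of 0.0718.

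nad1, a membrane subunit at the junction of the arms of complex I, has 7 probe sets whose behaviour differed. Of the 5 that passed, 257321_at and 257322_at were called over time in shoots (adjusted p = 0.0192 and 0.0101), and 257323_at, 257324_at and 257325_at were not (0.276 to 0.725). In shoots 257322_at read 40.7 and 49.9 at 0.25 h, 39.1 and 45.3 at 0.5 h, 46.2 and 43.6 at 1 h, 35.3 and 42.1 at 3 h, 53.8 and 60.1 at 6 h, 38.3 and 41.5 at 12 h, and 63.8 and 60.4 at 24 h. Both 24 h arrays lay above every earlier shoot array, and single-time calls below 24 h were made at 0.5 h (-0.46 ± 0.14), 1 h (-0.39 ± 0.14), 3 h (-0.56 ± 0.14) and 12 h (-0.52 ± 0.14), with adjusted p of 0.0206, 0.0419, 0.00708 and 0.0119. With 0.25 h as the reference in place of 24 h, none of these 4 was called, and without the 24 h arrays the F-test gave an adjusted p of 0.106. Leaving out shoots 24 h replicate 1 alone ended all 4 (0.114, 0.161, 0.0511 and 0.0755). In addition, single arrays of the tested time ended the calls at 0.5 h (replicate 1, 0.161), 1 h (replicate 1, 0.0893, and replicate 2, 0.159), 3 h (replicate 1, 0.0864) and 12 h (replicate 1, 0.0940), and the 1 h call was also lost without shoots 24 h replicate 2 (0.0782) or either root array at 1 h (0.0501 and 0.0502).

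The other called nad1 probe set, 257321_at, had a different course. Its shoot arrays read 59.6 and 39.9 at 0.25 h, 38.4 and 41.0 at 0.5 h, 49.0 and 46.6 at 1 h, 24.5 and 35.0 at 3 h, 38.6 and 28.5 at 6 h, 28.4 and 23.2 at 12 h, and 28.3 and 46.7 at 24 h. All arrays up to 1 h read 38.4 or more, and the 12 h arrays were the lowest pair, 1 of them below the 40th percentile. Its F-test was lost without shoots 12 h replicate 2 (adjusted p = 0.0682) and with shoot arrays alone in the fit (0.0634). In roots none of the 5 nad1 probe sets was called over time (0.129 to 0.634).

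The remaining complex I members gave no call over time. nad4L read 20.3 to 37.6 in shoots and 23.2 to 46.3 in roots, and nad6 read 19.0 to 44.4 in shoots and 19.5 to 46.1 in roots. The F-tests gave adjusted p of 0.195 (nad4L) and 0.374 (nad6) in shoots, and 0.517 and 0.482 in roots. nad2 and nad7, both untested, read at most 9.98 and 9.55 in shoots and 3.10 and 13.1 in roots. The untested nad1 probe sets 257327_at and 257329_at read at most 24.3 and 17.8 in shoots and 19.3 and 22.4 in roots.

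In complex IV, cox1 encodes the subunit that holds the oxygen-reducing centre. Its shoot arrays read 99.0 and 86.9 at 0.25 h, 49.4 and 77.7 at 0.5 h, 72.1 and 92.0 at 1 h, 67.6 and 73.0 at 3 h, 116.5 and 172.3 at 6 h, 99.2 and 97.2 at 12 h, and 131.8 and 138.5 at 24 h. The arrays at 0.5, 1 and 3 h all lay below both 24 h arrays and below both 6 h arrays. The log2 difference from 24 h was -1.001 ± 0.208 at 0.5 h (adjusted p = 0.00106), -0.66 ± 0.21 at 1 h (0.0179) and -0.85 ± 0.21 at 3 h (0.00539), and the F-test over time gave an adjusted p of 0.000712. The calls at 0.5 h and 3 h held whichever array was left out, and the 1 h call was lost without shoots 1 h replicate 1 (0.157), shoots 24 h replicate 1 (0.0605) or shoots 24 h replicate 2 (0.0755). With 0.25 h as the reference the 3 differences were -0.51 (0.232), -0.17 (0.642) and -0.35 (0.224), so none was called. In roots cox1 ranged from 66.3 to 141.0 and the F-test gave an adjusted p of 0.180.

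cox2, which carries the copper site that accepts electrons from cytochrome c, was weak in both organs. Its shoot arrays read 15.9 and 11.2 at 0.5 h, 12.4 and 15.0 at 3 h, and 26.4 and 27.2 at 24 h, and ranged from 15.0 to 33.6 at the other times. The calls against 24 h at 0.5 h (-0.63 ± 0.22, adjusted p = 0.0367) and 3 h (-0.62 ± 0.22, 0.0474) therefore compared groups below the 40th percentile with the only group above it on both arrays. Among the 21 single-time calls of members, no others had both arrays of the weaker group under that percentile than these 2. Both were lost at log2(signal + 1) (0.0818 and 0.103), with shoot arrays alone (0.0564 and 0.0714) and with 0.25 h as the reference (0.448 and 0.227). The 3 h call was also lost with quantile scaling (0.0707) and with no filter (0.0584). The call at 0.5 h was lost without either 0.5 h array (0.0533 and 0.227) or either 24 h array of the shoots (0.122 and 0.104), and the 3 h call was lost when any 1 of 20 arrays was left out, with adjusted p of 0.0501 to 0.206. The F-test over time gave cox2 an adjusted p of 0.0809 in shoots and 0.181 in roots.

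The cytochrome c maturation genes ccb382 and ccb452, which encode parts of the haem lyase that joins haem to cytochrome c, had the smallest F-test p-values of the members in roots. ccb382 read 369 and 292 at 0.25 h in shoots, 188 and 169 at 0.5 h, 238 and 209 at 1 h, 165 and 174 at 3 h, 321 and 373 at 6 h, 217 and 251 at 12 h, and 216 and 205 at 24 h. In roots it read 566 and 564 at 0.25 h, 319 and 291 at 0.5 h, 435 and 351 at 1 h, 305 and 390 at 3 h, 350 and 547 at 6 h, 686 and 656 at 12 h, and 602 and 614 at 24 h. Both organs had high arrays at 0.25 h and low arrays at 0.5 h, and afterwards the shoots were highest at 6 h and the roots at 12 h. The F-test over time gave an adjusted p of 9.28e-05 in shoots and 0.000271 in roots. Neither was lost under any alternative or with any array left out.

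Which single times of ccb382 were called depended on the reference. Against 24 h, shoots were higher at 0.25 h (0.62 ± 0.17, adjusted p = 0.00970) and at 6 h (0.69 ± 0.17, 0.00408), and roots were lower at 0.5 h (-0.97 ± 0.17, 0.00660) and at 3 h (-0.80 ± 0.17, 0.0339). Against 0.25 h, the step to 0.5 h was a difference of -0.84 ± 0.17 in shoots (adjusted p = 0.00413) and -0.87 ± 0.17 in roots (0.0309), with no overlap between the arrays in either organ. The shoot difference at 6 h was 0.07 against 0.25 h (adjusted p = 0.776), in place of 0.69 against 24 h. Leaving out shoots 0.25 h replicate 1 ended the 0.25 h call (0.121), and leaving out shoots 6 h replicate 2 ended the 6 h call (0.0565), which held without shoots 6 h replicate 1 (0.80, 0.0107). In roots the 0.5 h call was lost without roots 0.5 h replicate 2 (0.140) or roots 24 h replicate 2 (0.0581). The 3 h call in roots was lost without either root array at 3 h (0.610 and 0.0583), either root array at 24 h (0.0815 and 0.0889) or either shoot array at 3 h (0.0525 and 0.0521), and with root arrays alone (0.0771).

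ccb452 read 219 and 171 at 0.25 h in shoots, 113 and 123 at 0.5 h, 138 and 124 at 1 h, 97.6 and 88.6 at 3 h, 160 and 200.4 at 6 h, 164 and 151 at 12 h, and 151 and 154 at 24 h. In roots it read 321 and 233 at 0.25 h, 153 and 134 at 0.5 h, 197 and 153 at 1 h, 118 and 147 at 3 h, 159 and 207 at 6 h, 309 and 332 at 12 h, and 335 and 281 at 24 h. The arrays at 0.5, 1, 3 and 6 h in roots all lay below every root array at 0.25, 12 and 24 h. The F-test over time gave an adjusted p of 0.000529 in shoots and 4.48e-05 in roots, and neither was lost under any alternative. Against 24 h roots were lower at 0.5 h (-1.05 ± 0.17, adjusted p = 0.00437), 3 h (-1.16 ± 0.17, 0.00122) and 6 h (-0.73 ± 0.17, 0.0337), and shoots were lower at 3 h (-0.65 ± 0.17, 0.00837). Leaving out roots 0.5 h replicate 2 ended the call at 0.5 h (0.105), and leaving out roots 3 h replicate 1 ended that at 3 h (0.103). The call at 6 h was lost without roots 6 h replicate 1 (0.275) or roots 24 h replicate 1 (0.254), and with root arrays alone (0.0701). The shoot call at 3 h was lost without shoots 3 h replicate 2 (0.0759).

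The other cytochrome c maturation members gave no call over time. ccb206, an ATP-binding cassette transporter subunit of the maturation machinery, read 16.4 to 46.8 in shoots and 20.2 to 39.0 in roots, with F-test adjusted p of 0.206 and 0.765. ccb203, which encodes a further part of the haem lyase, was not tested and read 0.977 to 15.1 in shoots and 9.23 to 22.5 in roots.

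orfX, the translocase component, read 83.4 and 62.9 at 0.25 h in shoots, 54.3 and 54.3 at 0.5 h, 51.8 and 61.1 at 1 h, 39.6 and 42.5 at 3 h, 63.1 and 76.5 at 6 h, 59.5 and 69.9 at 12 h, and 62.5 and 62.2 at 24 h. In roots it read 75.8 and 80.5 at 0.25 h, 47.9 and 40.1 at 0.5 h, 59.7 and 49.9 at 1 h, 38.0 and 53.6 at 3 h, 48.0 and 73.9 at 6 h, 92.4 and 81.9 at 12 h, and 62.2 and 82.1 at 24 h. The 3 h pair was the lowest in shoots, while in roots the lowest arrays were 1 at 3 h and 1 at 0.5 h. The F-test over time gave an adjusted p of 0.0299 in shoots and 0.00718 in roots. The shoot F-test was lost without shoots 0.25 h replicate 1 (0.0537), shoots 3 h replicate 1 (0.156), shoots 3 h replicate 2 (0.0989) or shoots 6 h replicate 2 (0.0528). The shoot difference of -0.50 ± 0.18 at 3 h against 24 h (adjusted p = 0.0495) was lost when any 1 of 20 arrays was left out (0.0520 to 0.190).

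Between the organs, averaged over the 7 times, 4 of 16 tested members were called higher in shoots, with cox2 counted, and 4 lower. Of all tested probe sets 88.2% were called, 31.3% higher and 56.9% lower. The median over the members was -0.06 for shoots minus roots, against -0.27 for all tested probe sets. ccb382 had the largest difference, averaging 242 ± 70.6 in shoots and 477 ± 142 in roots (SD, n = 14 each), a log2 difference of -0.94 ± 0.06 (SE, adjusted p = 3.15e-12). ccb452 was 0.50 lower in shoots (-0.50 ± 0.06, adjusted p = 1.70e-07). nad5 257338_s_at was also lower in shoots (-0.32 ± 0.08, 0.000868), and so was nad6 (-0.21 ± 0.09, 0.0291). nad4 was higher in shoots, averaging 641 ± 191 in shoots and 499 ± 132 in roots (0.34 ± 0.09, 0.00124), as were nad1 257321_at (0.20 ± 0.07, 0.0149) and nad1 257322_at (0.15 ± 0.05, 0.0112). The fourth call was cox2 (adjusted p = 0.00677), with means of 19.3 in shoots and 14.4 in roots. It passed the filter only through shoots at 24 h, where it was high. Its higher direction was favoured by that filter and is not read as a difference between the organs. It exceeded the 40th percentile on 4 of 14 shoot arrays and 0 of 14 root arrays, so the size of its difference was not measured above that level. The differences of the 8 members that were not called ran from -0.13 for nad4L to 0.10 for nad1 257325_at, with nad9, cox1, nad1 257323_at, orfX, nad1 257324_at and ccb206 between them.

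**Figure D3:**
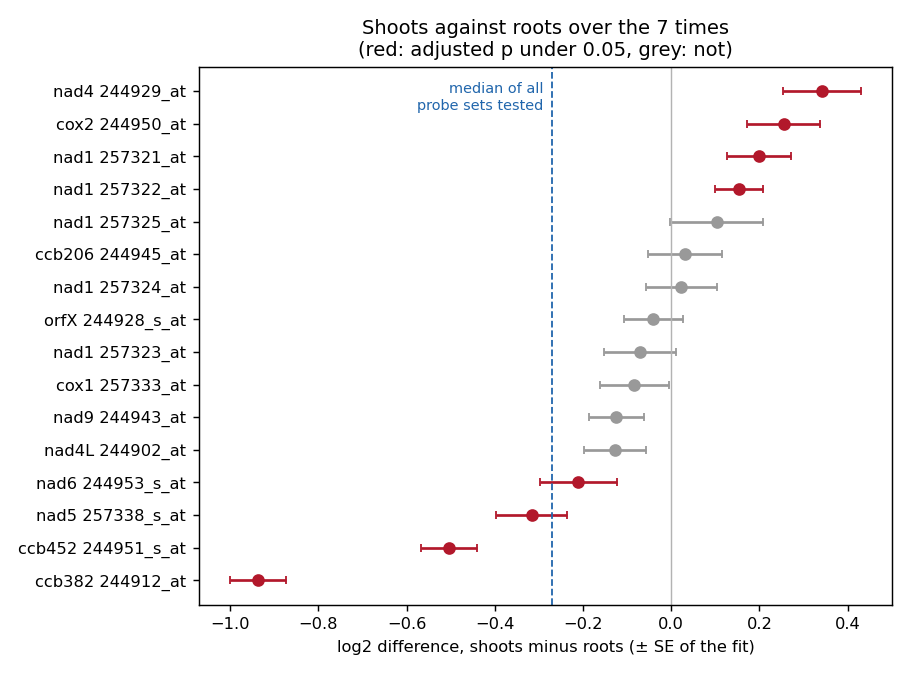
Difference between shoots and roots over the 7 times in log2 units, with the standard error of the fit, for the 16 tested probe sets; red points have an adjusted p under 0.05 and the dashed line is the median of all tested probe sets, -0.27. ccb382 at -0.94 and ccb452 at -0.50 lie furthest below 0, and nad4 at 0.34 furthest above.

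The scaling of the arrays bore on these directions. With quantile scaling the median of all tested probe sets moved to -0.16 and that of the members to 0.10, 5 of 16 members changed sign, and 6 members were called higher and 2 lower in place of 4 and 4. The counts of 4 and 6 higher members include cox2, whose direction was favoured by the filter. ccb382 (-0.98, adjusted p = 3.58e-12) and ccb452 (-0.43, 3.70e-06) stayed lower in shoots, and nad4 and both nad1 probe sets stayed higher. nad5 257338_s_at (-0.14, 0.109) and nad6 (-0.04, 0.630) were no longer called. nad1 257322_at lost its call without the 24 h arrays (0.0930). The nad6 call was lost when any 1 of 11 arrays was left out, with differences of -0.20 to -0.17 and adjusted p of 0.0502 to 0.0690.

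At single times the arrays of ccb382 did not overlap between shoots and roots at 0.25, 0.5, 1, 3, 12 or 24 h, and the difference was called at those 6 times. In the order of the times from 0.25 h these differences were -0.76, -0.74, -0.78, -0.98, -1.48 at 12 h and -1.48 at 24 h, and none of the calls was lost when an array was left out. Of the 16 tested members 5 were called at 0.25 h (71.4% of all tested probe sets called), 2 at 0.5 h (70.9%), and 2 each at 1 h (70.4%), 3 h (67.5%) and 6 h (65.9%). At 12 h the count was 6 (70.7%), and at 24 h it was 5 (71.4%), among them cox2, which passed the filter only through shoots at 24 h. The direction of that cox2 call was favoured by the filter. At 12 h all 6 called members were lower in shoots, and 15 of 16 tested members had a lower mean there, with a median of -0.38 against -0.28 for all probe sets. These 6 were ccb382, ccb452 (-0.98), nad5 257338_s_at (-0.96), nad9 (-0.65), nad1 257323_at (-0.60) and nad1 257321_at (-0.48). With quantile scaling the median of the members at 12 h was -0.23 against -0.18 for all probe sets, and 3 of 16 members changed sign. nad1 257323_at was below the 40th percentile on both shoot arrays at 12 h. nad1 257321_at lost its 12 h call with quantile scaling (adjusted p = 0.122), and it was higher in shoots at 0.25 h (0.51) and 1 h (0.48). Its 12 h call and that of nad1 257323_at were lost without shoots 12 h replicate 2 (0.169 and 0.117) or roots 12 h replicate 2 (0.279 and 0.128), and its calls at 0.25 h and 1 h were lost without shoots 0.25 h replicate 1 (0.285), roots 0.25 h replicate 2 (0.0960) or any array at 1 h (0.0568 to 0.145). nad4 was called at 6 h, with 797 and 992 in shoots against 514 and 426 in roots (0.91 ± 0.23, adjusted p = 0.00188), and the call held without shoots 6 h replicate 1 (1.07, 0.00356).

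The time courses of ccb382, ccb452 and nad5 257338_s_at differed between the organs by the F-test over the 6 interactions, each being the change from 24 h in shoots minus that in roots. The adjusted p was 0.00317 for ccb382, 0.0169 for ccb452 and 0.0254 for nad5 257338_s_at. At 6 h ccb382 stood 0.69 above its 24 h level in shoots (adjusted p = 0.00408), while the difference in roots was -0.46 (adjusted p = 0.221). At 12 h its mean was 234 in shoots and 671 in roots, against 210.3 in shoots and 608 in roots at 24 h. The F-test of nad5 257338_s_at was lost without shoots 6 h replicate 2 (0.0636), shoots 12 h replicate 1 (0.0653), shoots 12 h replicate 2 (0.0506), roots 6 h replicate 1 (0.0627) or roots 12 h replicate 2 (0.0666), and that of ccb452 without the 24 h arrays of both organs (0.0516).

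The plastid is the other organelle with its own genome, and 69 plastid-encoded genes with a single-gene probe set were all tested. All 69 were higher in shoots than in roots (31.3% of all tested probe sets called higher), with a median of 2.84. The mitochondrion-encoded members had a median of -0.06. Over time, however, the medians of the sets followed similar courses in roots, and in shoots up to 6 h. In roots the 16 tested mitochondrion-encoded members had a median of -0.27 relative to the organ mean at 0.5 h, beside -0.42 for the plastid-encoded genes. The medians in roots were -0.18 for the members and -0.23 for the plastid-encoded genes at 3 h, and 0.32 for both at 12 h. In shoots they were -0.17 and -0.11 at 0.5 h, -0.24 and -0.33 at 3 h, and 0.18 and 0.22 at 6 h. The shoot medians then parted, with -0.01 and 0.08 at 12 h and 0.08 and -0.02 at 24 h. Against 24 h in roots, 19 of 69 plastid-encoded genes were called lower at 0.5 h (0.264% of all tested probe sets) and 4 at 3 h (0.209%). None was called higher at either time. The F-test over time called 28 of 69 in shoots (61.5% of all tested probe sets) and 35 of 69 in roots (14.8%).

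The array's control probe set for nuclear-encoded 25S ribosomal RNA moved beside these medians in part. In shoots it read 1833 and 1279 at 0.25 h, 546 and 1488 at 0.5 h, 2095 and 1468 at 1 h, 1284 and 1516 at 3 h, 2336 and 2684 at 6 h, 2054 and 2825 at 12 h, and 2359 and 2349 at 24 h. In roots it read 2031 and 1836 at 0.25 h, 1574 and 1455 at 0.5 h, 2016 and 1905 at 1 h, 2095 and 2090 at 3 h, 2099 and 1876 at 6 h, 2734 and 2539 at 12 h, and 1664 and 2173 at 24 h. Its lowest array in each organ was at 0.5 h and its highest at 12 h, while at 3 h it was below the 6, 12 and 24 h arrays in shoots and inside the range of the other arrays in roots. Its part in the time courses of the organelle transcripts was not tested.

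**Figure D4:**
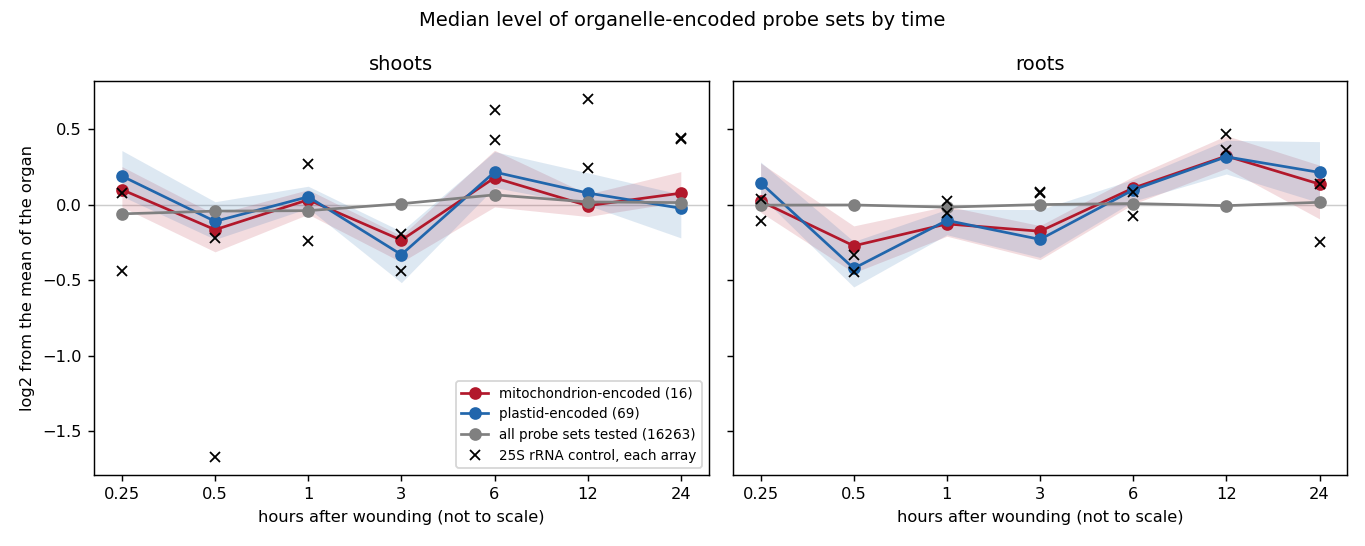
Median log2 level relative to the mean of the organ for 16 mitochondrion-encoded and 69 plastid-encoded probe sets (bands: 25th to 75th percentile) and for all 16263 tested probe sets, with the 25S rRNA control of each array as crosses; shoots left, roots right, and the time axis is not to scale. Both organelle medians are below 0 at 0.5 h and 3 h in each organ.

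In roots at 0.5 h, where 0.264% of all tested probe sets were called lower, a list of this size would hold few calls, so nuclear genes for mitochondrial proteins are given by their levels. All 13 measured nuclear complex I genes had a higher mean at 0.5 h than at 24 h there, with a median of 0.22 and no call, whereas 13 of 16 mitochondrion-encoded members had a lower one. Relative to the root mean the complex I median was 0.14 at 0.5 h and -0.07 at 24 h, where 12 of 13 lay below their mean. The difference thus rests in part on low levels at 24 h. In shoots at 0.5 h the complex I median was -0.08 relative to the shoot mean, and 11 of 13 lay below it. The medians in roots at 0.5 h were 0.18 for 13 genes of complex III and cytochrome c and 0.11 for 10 genes of complex IV and its assembly, also with no call. Over time in shoots, the F-test called 3 of 13 nuclear complex I genes, 5 of 13 of complex III and cytochrome c, and 5 of 10 of complex IV, against 61.5% of all tested probe sets. In roots it called 1, 1 and 0 of these, against 14.8% of all. Of the genes for synthesis and processing of mitochondrial RNA, 4 of 4 were called in shoots and 1 in roots. At 3 h in shoots, where all 16 tested mitochondrion-encoded members were lower than at 24 h, these 4 genes had a median of 0.47. Of them 2 were called higher (11.4% of all tested probe sets called higher) and none lower. Relative to the shoot mean their median was 0.23 at 3 h and -0.35 at 24 h, where all 4 lay below their mean. The difference thus rests in part on low levels at 24 h. AT5G14580, AT5G15700 and OTP87 exceeded the percentile of the filter on only 2, 3 and 3 of 14 shoot arrays, and AT5G46920 on all 14.

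Between the organs the nuclear genes were mostly called lower in shoots. Of all tested probe sets 56.9% were called lower and 31.3% higher, with a median of -0.27, or -0.16 with quantile scaling. Of complex I genes 11 of 13 were lower and 1 higher in shoots, with a median of -0.37, and AT5G18800 (-0.92), AT5G47890 (-0.70) and AT5G52840 (-0.44) had the smallest adjusted p. Of 4 tested complex II genes, which encode succinate dehydrogenase, 3 were lower with SDH1-2 left aside, among them SDH1-1 (-1.52) and SDH2-1 (-0.94). SDH1-2 averaged 1.54 in shoots and 32.5 in roots and exceeded the 40th percentile on 0 of 14 shoot arrays and 8 of 14 root arrays. It passed the filter only through roots, where it was high, so its call is not counted and no size is given for its difference. Of complex III and cytochrome c genes 11 of 13 were lower, led by AT1G15120 (-0.96), AT2G40765 (-0.99) and AT3G52730 (-0.85). Of complex IV genes 9 of 10 were lower, led by AT3G15640 (a COX5b subunit, -1.56), AT1G53030 (a COX17 copper chaperone, -1.27) and AT2G47380 (a COX5c subunit, -0.99). CCMH, the only measured nuclear gene of cytochrome c maturation, differed by -0.17 (adjusted p = 0.0108), beside -0.94, -0.50 and 0.03 for the mitochondrion-encoded ccb382, ccb452 and ccb206. CCMH was weak and exceeded the 40th percentile on 6 of 14 shoot arrays and 5 of 14 root arrays. Of 4 genes for synthesis and processing of mitochondrial RNA, 3 were lower, led by AT5G14580 (polynucleotide phosphorylase, -0.51), AT5G15700 (an organellar RNA polymerase, -0.63) and AT5G46920 (an intron maturase, -0.32). AT5G14580 exceeded the 40th percentile on 2 of 14 shoot arrays and 9 of 14 root arrays, and AT5G15700 on 3 shoot and 5 root arrays. Of the ATP synthase genes 1 of 2 was lower, AT1G51650 (-0.84). Of 4 tested genes of alternative respiration, whose alternative NADH dehydrogenases bypass complex I, 2 were higher and 1 lower with NDB3 left aside. NDB3 exceeded the 40th percentile on 7 of 14 shoot arrays and 0 of 14 root arrays. It passed the filter only through shoots, where it was higher, so its call is not counted. NDC1 was higher in shoots (1.38), NDB1 was higher (0.33) and NDB2 was lower (-1.46).

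**Figure D5:**
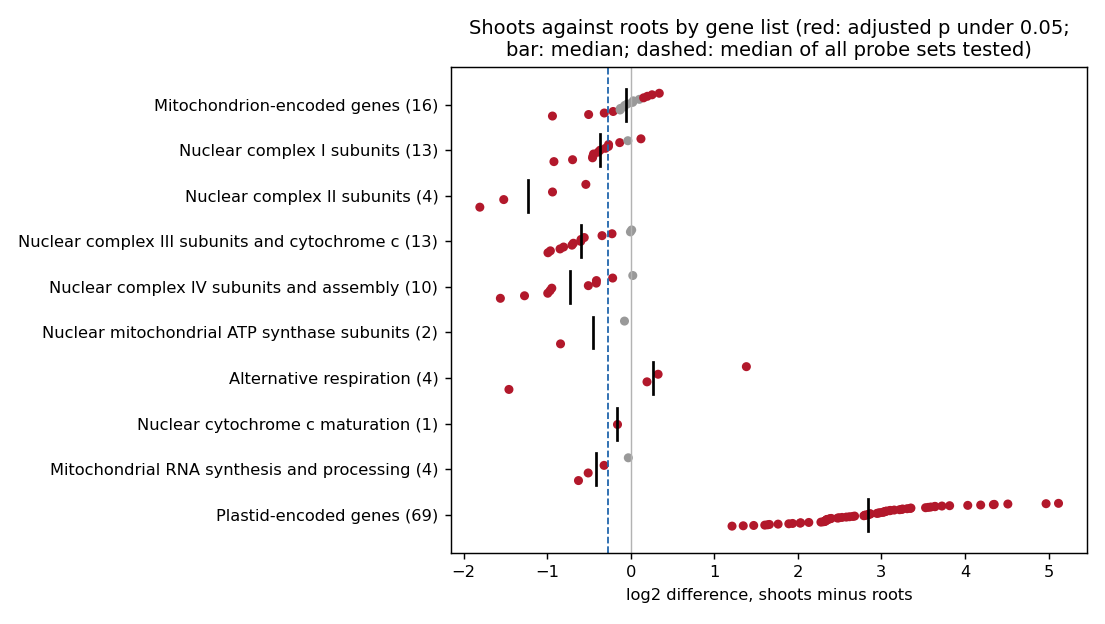
Difference between shoots and roots over the 7 times in log2 units for each tested probe set of the mitochondrion-encoded genes, 8 nuclear lists and the plastid-encoded genes (numbers in brackets); red points have an adjusted p under 0.05, bars are medians and the dashed line is the median of all tested probe sets, -0.27. The mitochondrion-encoded median of -0.06 lies between the median of -0.37 for nuclear complex I and that of 2.84 for the plastid-encoded genes.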

How the data were processed

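Total RNA of 28 samples was hybridised to ATH1 arrays. Each deposited intensity is the linear signal of a probe set, for which the submitters' processing notes name MAS5, without a version. After leaving out the highest and lowest 2%, the mean of every array lay between 100.007 and 100.01, so the deposited scaling was kept. Scanner files were not used here.

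Signals were taken to log2(signal + 10.7), the 25th percentile of all signals, which understates changes of weak signals. AFFX controls (64 probe sets) were left out of the tests, and 16263 of 22810 probe sets passed the filter at the 40th percentile. limma 3.58.1 (R 4.3.3) fitted 1 mean per organ and time to the 28 arrays (14 residual degrees of freedom), with eBayes (trend, robust) and Benjamini-Hochberg adjustment over all 16263, with calls under 0.05. Percentages in brackets beside counts are the share of all tested probe sets called. The fit was tested on simulated data. Arrays limit precision by their number, 2 per group.

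Members, gene lists and tests were chosen with earlier results of these data known. Values by group are given for each member called at any time or by an F-test (at most 12), for the 6 largest and 6 smallest organ differences and for the strongest member of each role; of each nuclear list, at most 3 genes with the smallest adjusted p. Alternatives changed the scaling, offset, filter, moderation, replicate block, arrays in the fit, reference time and single arrays.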

Additional observations from a re-analysis of the deposited data

Results flagged for a closer look

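The changes over time differed between shoots and roots in 3 of 16 tested mitochondrion-encoded members (42.2% of all tested probe sets called). The test was limma's F-test over the 6 differences from 24 h. For ccb382 the adjusted p was 0.00317, with mean signals of 347 in shoots and 448 in roots at 6 h and of 234 in shoots and 671 in roots at 12 h. For ccb452 it was 0.0169, with 180 in shoots and 183 in roots at 6 h and 158 in shoots and 320 in roots at 12 h. For nad5 257338_s_at it was 0.0254, with 91.3 in shoots and 73.8 in roots at 6 h and 53.6 in shoots and 115 in roots at 12 h. The nad5 call was lost when any 1 of 5 arrays was left out (0.0506 to 0.0666), and the ccb452 call without the 24 h arrays (0.0516).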

How the results depend on the processing

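Of 69 member values called, 27 kept their call under every alternative and every array left out. Counts of members called that moved by over 1.5 times were, with quantile scaling, 1 in shoots at 1 h, 2 lower in shoots than roots over all times, 4 between organs at 0.5 h and 1 at 3 h; with log2(signal + 1), 1 in shoots at 1 h; with no filter, 1 in shoots at 1 h, 2 in shoots at 12 h, and 4 each between organs at 0.5 h and 3 h; with the filter at the 60th percentile, which tests fewer probe sets, 2 higher in shoots than roots and 1 each between organs at 0.5 h and 6 h; with eBayes without trend and robust, 2 in shoots at 0.25 h; with arrays of the same organ alone, 1 in shoots at 1 h, 1 in roots at 3 h and 0 in roots at 6 h; with 0.25 h as the reference, 2 in shoots at 0.5 h, 2 in shoots at 12 h and 0 in roots at 6 h; and without the 24 h arrays, 2 higher in shoots than roots. The causes were not tested.

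With 1 array left out, the counts against 24 h ranged in shoots from 1 to 2 at 0.25 h, 1 to 5 at 0.5 h, 1 to 3 at 1 h, 2 to 6 at 3 h, 0 to 2 at 6 h and 0 to 1 at 12 h, and in roots from 0 to 2 at 0.5 h, 3 h and 6 h, staying at 0 at the other times. Over all times 4 to 5 members were higher and 3 to 6 lower in shoots than in roots. Between organs at single times the ranges were 3 to 5 at 0.25 h, 2 to 4 at 0.5 h, 1 to 3 at 1 h, 1 to 2 at 3 h, 1 to 3 at 6 h, 4 to 7 at 12 h and 2 to 5 at 24 h. The F-tests called 7 to 10 in shoots, 5 to 6 in roots and 2 to 4 for the difference between them. Values called with the opposite sign were ccb382 in shoots at 1 h (-0.54) and 12 h (-0.47) with 0.25 h as the reference, and nad1 257325_at for shoots minus roots at 0.25 h (-0.58) without shoots 0.25 h replicate 1; none of the 3 was called in the fit reported.

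Replicate numbers did not pair the samples: over 91 pairs of groups the correlation of same-numbered deviations ran from -0.28 to 0.19, over 0.1 in 10. With the replicate block 4 members were called at 0.5 h in shoots, as without it, no count moved by over 1.5 times, and cox2 in shoots at 3 h lost its call (adjusted p = 0.0515). Of the 21 calls of members against 24 h, 2 had the weaker group below the 40th percentile on both arrays.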
